A study of Mus musculus with 16 samples.

Results

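Of the 16 cultures in this mouse cortical neuron study 8 were exposed to oxygen-glucose deprivation (OGD), and they did not respond to the same extent. The cultures OGD-TIA 16 and OGD-VEH 10, 11 and 12 (4 strong responders) were set against OGD-VEH 9 and OGD-TIA 13, 14 and 15 (4 mild responders), with the 8 CONTROL cultures as reference. The cultures were selected on the measured size of their expression response, so strong and mild are described by their values and ranges and were not tested against each other. The drug arms are not balanced between them: the strong set holds 3 OGD-VEH and 1 OGD-TIA cultures, and the mild set holds 1 OGD-VEH and 3 OGD-TIA cultures, so severity and drug cannot be told apart beyond the within-arm values given below.

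All cultures were primary cortical neurons of wild-type (wt) mouse embryos at embryonic day 15. After 8 days in vitro they received vehicle (VEH) or 10 µM tianeptine (TIA), an atypical antidepressant, and 24 h later they were subjected to sham treatment (CONTROL) or to 3 h of OGD followed by 6 h of reoxygenation. Cultures 1 to 4 are CONTROL-VEH, 5 to 8 CONTROL-TIA, 9 to 12 OGD-VEH and 13 to 16 OGD-TIA, with 4 per group. RNA was sequenced as stranded mRNA libraries, and levels are FPKM, fragments scaled to transcript length and to library size, summed over the isoforms of a gene.

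OGD is a culture model of ischemic stroke. Without oxygen and glucose neurons run out of ATP, ion pumps fail, glutamate is released and calcium enters through NMDA receptors. Reoxygenation adds oxidative stress, to which cells respond with immediate early factors, the p53 pathway, NRF2-driven antioxidant genes and NF-kB-driven chemokines, while synaptic genes are lost as neurons degenerate. Cortical cultures also hold some astrocytes, which withstand OGD better than neurons do, and some oligodendrocyte precursors. In bulk RNA fewer cells of a type and less RNA per cell cannot be told apart.

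The estimated depth was 20.4 to 25 M reads in the CONTROL cultures, 19.9 to 25.3 M in the mild and 21.4 to 23.4 M in the strong cultures, so the sets overlapped in depth. Transcripts of the mitochondrial genome took 4.68 to 5.34% of the summed FPKM in CONTROL, 5.00 to 5.29% in mild and 4.51 to 5.15% in strong cultures. The neuronal markers Tubb3 and Map2 had CONTROL medians of 855 and 643 FPKM, and Rbfox3, which encodes the nuclear marker NeuN, 46.4 FPKM. Of 14 microglial markers 11 were under the filter of a mean of 0.5 FPKM, Cx3cr1, P2ry12 and Tmem119 among them, and none of those 11 exceeded 0.346 FPKM in any culture. Of 15 vascular and fibroblast markers 13 were under the filter. One CONTROL culture stood apart: CONTROL-VEH 4 had 47.0% of genes beyond the range of the other CONTROL cultures, against 19.3 to 24.2% in the other 7, and it carried more astrocyte RNA (Gfap, the astrocyte intermediate filament, 87.4 FPKM against 5.09 to 15.1 in the other 7).

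The overall OGD response of a culture was the mean signed log2 change from the CONTROL mean over the 780 genes called in OGD against CONTROL. It was 0.87, 0.78, 0.95 and 0.82 in the mild cultures OGD-VEH 9, OGD-TIA 13, 14 and 15, and 1.92, 1.77, 2.41 and 1.81 in the strong cultures OGD-VEH 10, 11, 12 and OGD-TIA 16. The CONTROL cultures lay between -0.14 and 0.10. The strong culture nearest to the dividing line was OGD-VEH 11 at 1.77, and the nearest mild culture was OGD-TIA 14 at 0.95. No culture fell between them. The Euclidean distance from the CONTROL mean over all 16313 genes tested gave the same split, 72.8 to 78.0 in mild and 104 to 144 in strong cultures, but by this measure the mild cultures met the outlying CONTROL-VEH 4 at 76.3. The share of genes beyond the CONTROL range was 28.5 to 32.4% in single mild cultures and 52.7 to 64.6% in single strong cultures.

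**Figure D1:**
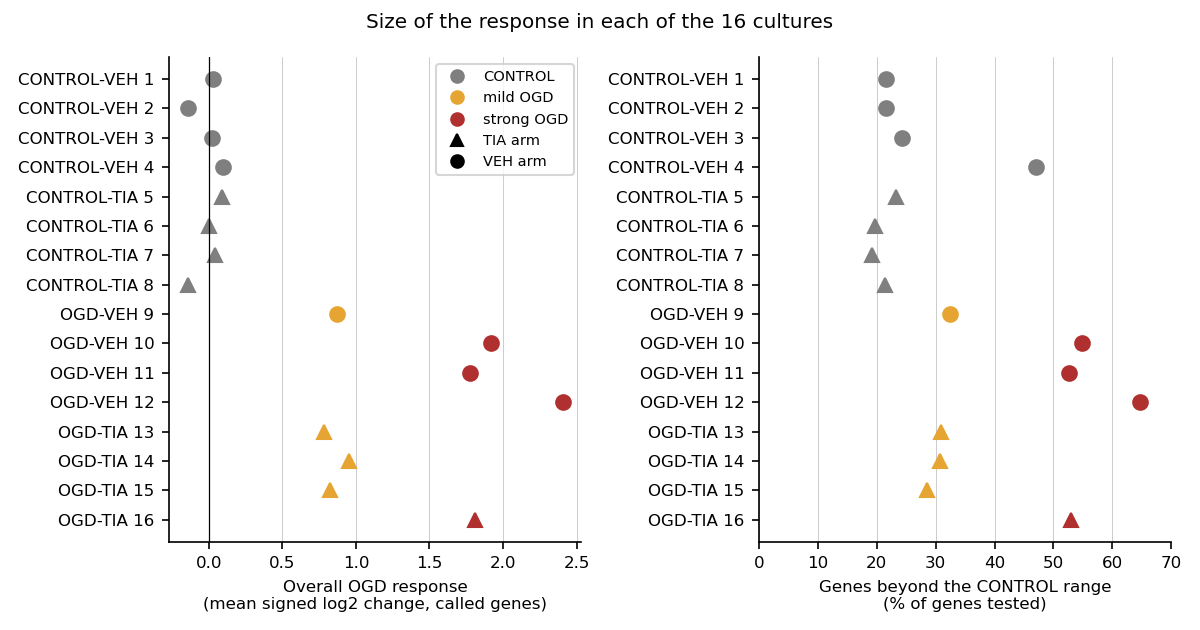
Overall OGD response (mean signed log2 change over the 780 called genes) and percent of genes tested that lie beyond the range of the CONTROL cultures (for a CONTROL culture, of the other 7), 1 symbol per culture, triangles for TIA and circles for VEH. Mild cultures sit between 0.78 and 0.95 and strong cultures between 1.77 and 2.41, and CONTROL-VEH 4 stands apart from the other CONTROL cultures at 47.0% of genes.

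In OGD against CONTROL over both drug arms (8 against 8 cultures, limma, adjusted p, written padj, up to 0.05 and 1 log2 unit or more in either direction), 456 genes were upregulated (2.8% of genes tested) and 324 were downregulated (1.99%). Among the upregulated genes the median change from CONTROL was 0.74 log2 units in mild and 1.86 in strong cultures, and among the downregulated genes it was -0.73 and -1.68. The mild change had the direction of the strong change in 455 of 456 upregulated and 324 of 324 downregulated genes, a direction that the call over all 8 OGD cultures nearly fixes. For the median upregulated gene the mild change was 0.374 of the strong change on the log2 scale (quartiles 0.280 and 0.505), and for the median downregulated gene it was 0.421 (quartiles 0.309 and 0.594).

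Over all genes tested, every strong culture was above every mild culture for 3335 genes (20.4%) and below every mild culture for 2402 genes (14.7%). The median difference of strong minus mild over all genes was 0.08 log2 units, and that shift moves with the scaling: with median-ratio scaling it was 0.01, and 2710 genes were higher and 2956 lower, so that the share of higher genes among those not overlapping went from 58.1% to 47.8%. Of the 456 upregulated genes 323 had every strong above every mild culture, and of the 324 downregulated genes 175 had every strong below every mild culture. The selection of the cultures used these same genes, so nothing is read from those counts against the background.

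Few genes separated the mild cultures from CONTROL. All 4 mild cultures were above the range of the 8 CONTROL cultures for 688 genes (4.22%) and below it for 530 (3.25%), whereas all 4 strong cultures were above it for 2983 (18.3%) and below it for 2246 (13.8%). Without the outlying CONTROL-VEH 4 the counts were 960 and 787 for mild and 3539 and 2587 for strong cultures. A graded pattern, with mild beyond CONTROL and strong beyond mild, was present in 116 upregulated and 59 downregulated genes. A larger number left the CONTROL range in the strong cultures alone: 252 upregulated genes, of which 200 did not overlap the mild cultures, and 164 downregulated genes, of which 113 did not. In the mild cultures alone it was 11 upregulated and 18 downregulated genes.

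**Figure D2:**
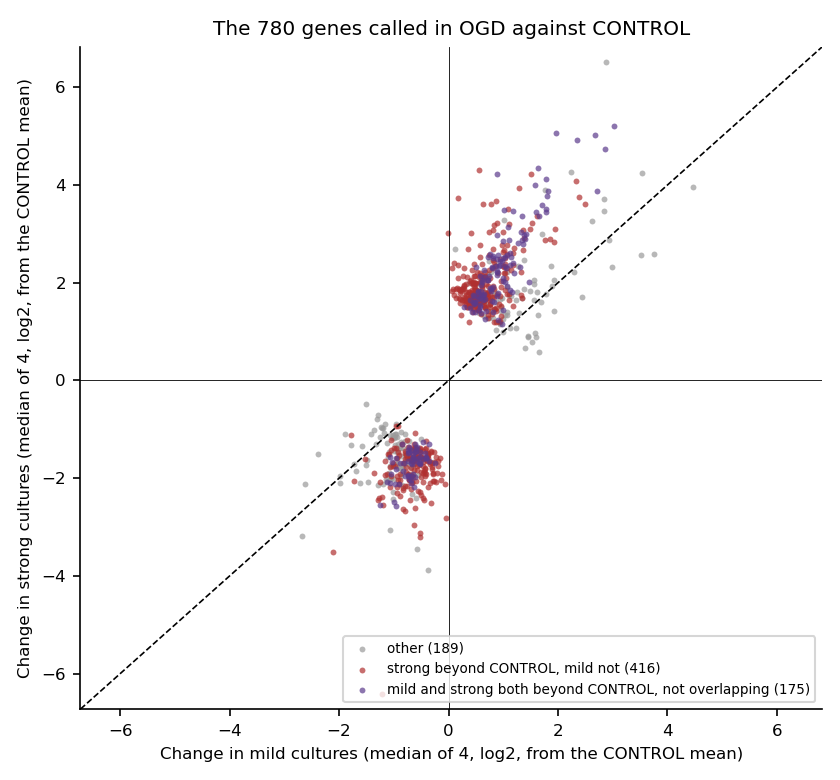
Each point is 1 of the 780 genes called in OGD against CONTROL, with the median change of the 4 mild cultures on the x axis and of the 4 strong cultures on the y axis (log2, from the CONTROL mean). Most points lie farther from 0 on the y axis than on the x axis (dashed line, equal change), and the medians are 0.74 and 1.86 for upregulated and -0.73 and -1.68 for downregulated genes.

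Among called genes that averaged 2 FPKM or more and have no placeholder name, those with the widest gap between the nearest strong and the nearest mild culture are given first, with values in the order OGD-VEH 9, OGD-TIA 13, 14, 15 for mild and OGD-VEH 10, 11, 12, OGD-TIA 16 for strong cultures. Cenpf (chromosome 1, 189640606 to 189688086, GRCm38), a kinetochore protein of dividing cells, read 1.76, 1.88, 2.31 and 1.61 FPKM in mild and 19.2, 26.9, 44.7 and 13.6 FPKM in strong cultures, against 1.34 to 2.40 in CONTROL. The mild cultures lay inside the CONTROL range and every strong culture lay above it. Kifc1, a mitotic kinesin, was at 5.07, 7.22, 7.89 and 6.15 FPKM in mild and 46.0, 36.2, 62.4 and 21.5 FPKM in strong cultures (CONTROL 3.97 to 7.83). Ddit4l, an inhibitor of mTOR signaling related to REDD1, read 5.49, 5.29, 6.55 and 5.58 FPKM in mild and 41.9, 37.2, 74.3 and 38.3 FPKM in strong cultures (CONTROL 1.57 to 8.28). For these 3 genes the mild set was not separated from CONTROL, and every strong culture was above every other culture.

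Tmbim1, a lysosomal membrane protein of the Bax inhibitor family, showed a graded pattern with 4.93, 4.44, 6.11 and 5.03 FPKM in mild and 55.7, 26.2, 70.4 and 47.1 FPKM in strong cultures (CONTROL 2.24 to 4.01). Tgif1, a repressor of TGF-beta signaling, was graded as well, with 2.62 to 3.11 FPKM in mild and 8.75 to 16.5 FPKM in strong cultures (CONTROL 1.03 to 2.07). Vipr2, a receptor of the peptide VIP, read 2.17 to 2.46 FPKM in mild and 7.19, 8.02, 26.3 and 22.7 FPKM in strong cultures (CONTROL 0.591 to 1.79). OGD-VEH 12 and OGD-TIA 16 thus carried about the same Vipr2 level, well above the other strong cultures. Layn, a hyaluronan receptor, read 2.09 to 4.88 FPKM in mild and 22.6 to 33.2 FPKM in strong cultures, and Suclg2, a subunit of the GTP-forming succinyl-CoA synthetase of mitochondria, 8.36 to 17.1 and 52.9 to 118 FPKM. For OGD against CONTROL the log2 fold changes of these 8 genes ran from 1.59 ± 0.54 (SE) for Suclg2 to 2.74 ± 0.58 for Layn, with limma padj from 0.00223 (Tgif1) to 0.0345 (Suclg2). The sum over isoforms weighs on some of these values: with isoforms weighted by length the difference of strong minus mild fell from 3.57 to 1.27 log2 units for Cenpf and from 3.02 to 1.31 for Suclg2, and the sets still did not overlap.

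Among the downregulated genes named by the same rule, Cish and Nxph2 had the widest differences. Nxph2, a secreted ligand of alpha-neurexins, read 4.92, 5.08, 3.14 and 3.52 FPKM in mild and 0.549, 0.476, 0.571 and 1.09 FPKM in strong cultures (CONTROL 4.63 to 7.64). Cish, an inhibitor of JAK-STAT signaling, read 34.7, 38.9, 32.1 and 35.1 FPKM in mild and 5.72, 5.68, 3.5 and 4.48 FPKM in strong cultures (CONTROL 21.7 to 64.0). The mild cultures were inside the CONTROL range for Cish, and every strong culture was below it. Weighted by length, the strong minus mild difference of Cish was -1.04 instead of -2.77 log2 units, whereas that of Nxph2 stayed at -2.69. Clstn3, a postsynaptic calsyntenin, read 230 to 305 FPKM in mild and 104, 60, 56.0 and 106 FPKM in strong cultures (CONTROL 301 to 488), and Cntnap3, a neurexin-family adhesion protein, 2.21 to 3.14 and 0.490 to 0.935 FPKM (CONTROL 3.05 to 6.19). Ldb2, a cofactor of LIM-homeodomain factors, was graded with 118 to 133 FPKM in mild and 50.4, 46.4, 14.8 and 47.0 FPKM in strong cultures (CONTROL 133 to 176). Fam81a (34.0 to 69.0 and 11.7 to 14.3 FPKM) and Rab3d, a secretory vesicle GTPase (22.9 to 39.8 and 5.08 to 10.8 FPKM), had mild cultures within the CONTROL range. The limma padj of the 8 genes, Dhcr7 included, ran from 0.00368 (Dhcr7) to 0.0422 (Fam81a).

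The p53 pathway rises after DNA damage and ischemia and drives cell cycle arrest and apoptosis. Of 31 p53 genes 30 passed the filter, 10 were upregulated in OGD against CONTROL and 0 were downregulated. Over all genes tested 2.8% were upregulated and 1.99% downregulated. Every strong culture was above every mild culture for 18 of the 30, beside 20.4% of all genes tested, and the reverse held for Plk3 alone. All mild cultures were already above CONTROL for 11 of the 30, beside 4.22% of all genes tested. Trp53, which encodes p53 itself, read 108, 94.0, 92.4 and 83.4 FPKM in mild and 166, 134, 160 and 120 FPKM in strong cultures (CONTROL 19.5 to 65.3, median 54.0). All 8 OGD cultures were above all CONTROL cultures, and the strong median was 1.58 times the mild median (OGD against CONTROL log2 fold change 1.48 ± 0.27, limma padj = 0.00258).

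The death receptors of the pathway separated further. Fas, the receptor of Fas ligand, read 1.90, 0.901, 1.68 and 1.60 FPKM in mild and 4.12, 5.32, 8.98 and 5.13 FPKM in strong cultures (CONTROL 0.330 to 0.925). Tnfrsf10b, the TRAIL receptor, read 2.04, 1.34, 2.19 and 2.33 FPKM in mild and 5.67, 4.33, 6.94 and 4.07 FPKM in strong cultures (CONTROL 0.471 to 1.38). Eda2r, another TNF receptor family member induced by p53, was at 6.95 to 8.81 FPKM in mild and 17.4 to 29.9 FPKM in strong cultures (CONTROL 1.67 to 4.90). All 3 were upregulated in OGD against CONTROL, by 2.27 ± 0.37, 1.74 ± 0.30 and 1.70 ± 0.32 log2 units (limma padj 0.00174, 0.00198 and 0.00298). Gadd45b, a stress-induced growth arrest gene, read 2.48 to 3.09 FPKM in mild and 10.4, 9.41, 11.5 and 4.41 FPKM in strong cultures (CONTROL 1.42 to 2.44), with the strong TIA culture much nearer to the mild ones. Cdkn1a, which encodes the cell cycle inhibitor p21, was below the fold threshold, with 58.1 to 61.6 FPKM in mild and 69.9 to 103 FPKM in strong cultures.

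Casp8 was under the filter and is given as values. Casp8, the initiator caspase of death receptors, read 0.383, 0.236, 0.466 and 0.329 FPKM in mild and 1.11, 1.0, 0.928 and 0.939 FPKM in strong cultures, with CONTROL cultures from a listed 0 to 0.318. The strong cultures were all above the mild ones, at levels where each value rests on few reads.

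The caspases and BCL2 family members carry out cell death. Of 26 such genes 20 passed the filter, and 0 were called in OGD against CONTROL with limma, although 6 were higher and 2 lower at an unadjusted p under 0.05 without regard to fold. Every strong culture was above every mild culture for 6 of the 20 (Casp1, Ripk1, Bcl2, Mcl1, Bmf and Bak1) and below for 3 (Gsdme, Bcl2l1 and Hrk). Over all genes tested the shares were 20.4% and 14.7%, so nothing is read from these counts. Bcl2l1, which encodes the survival protein BCL-XL, read 117, 130, 113 and 116 FPKM in mild and 85.9, 71.0, 62.4 and 74.3 FPKM in strong cultures. The CONTROL cultures spanned both, at 70.4 to 124 FPKM. Hrk, a pro-apoptotic BH3 protein of neurons, was above CONTROL or at its upper edge in mild cultures (17.3 to 19.9 FPKM) and below CONTROL in strong cultures (7.28 to 11.8 FPKM against 14.7 to 18.3 FPKM in CONTROL).

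Immediate early factors of the AP-1, EGR and NR4A families are transcribed within minutes of a stimulus, and FOS and JUN proteins pair to form AP-1. Of 25 such genes 24 passed, 4 were upregulated and 1 (Egr3) was downregulated, beside 2.8% and 1.99% of all genes tested. On the CONTROL mean alone 22 would pass, so the counts lean towards genes that are high after OGD. Fosl1, an AP-1 subunit, read 1.96, 1.52, 1.56 and 1.24 FPKM in mild and 7.93, 6.77, 8.63 and 3.99 FPKM in strong cultures, against a listed 0 to 0.462 in CONTROL (log2 fold change 4.04 ± 0.47, limma padj = 0.000435). Fos itself read 5.08, 2.95, 3.27 and 3.30 FPKM in mild and 23.2, 10.4, 10.1 and 5.83 FPKM in strong cultures (CONTROL 1.57 to 3.88). Atf3, a stress-induced factor that partners with JUN, read 0.621 to 0.846 and 4.24, 3.26, 2.35 and 1.46 FPKM (CONTROL 0.216 to 0.519). For all 3 the lowest strong culture was OGD-TIA 16. The order of the strong cultures here, with OGD-VEH 10 highest for Fos and Atf3, was not the order of the overall response, in which OGD-VEH 12 led.

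The median change of the immediate early list was -0.07, -0.13, -0.03 and -0.06 log2 units in mild and 0.71, 0.52, 0.33 and 0.05 in strong cultures. OGD-TIA 16 was thus near the mild cultures for this list in spite of its strong overall response, and within the TIA arm the median difference of strong minus mild was 0.05, against 0.66 within the VEH arm. Of the 24 genes 10 had every strong above every mild culture and 2 every strong below, beside 20.4% and 14.7% of all genes tested. Egr1, Nr4a1 and Arc, which neuronal activity induces, were among the higher genes. Egr3 and Nr4a3, of the EGR and NR4A families, were the 2 below. Egr3 read 5.33, 5.89, 8.16 and 10.5 FPKM in mild and 4.43, 4.55, 1.57 and 3.63 FPKM in strong cultures (CONTROL 8.66 to 20.3).

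The phosphatases and adaptors that switch off MAP kinases were arranged alike. All 16 listed genes passed, and 1 was upregulated, beside 2.8% of all genes tested. This gene, Dusp4, read 24.5, 17.0, 20.8 and 23.6 FPKM in mild and 55.3, 61.3, 80.7 and 39.9 FPKM in strong cultures (CONTROL 9.16 to 16.2). Dusp10, a phosphatase for p38 and JNK, was at 1.43 to 2.04 FPKM in mild and 4.36, 3.92, 4.98 and 2.86 FPKM in strong cultures, and Dusp16, a JNK phosphatase, at 2.73 to 3.39 and 5.16 to 13.4 FPKM. The median change of the list was 0.06, 0.01, 0.07 and 0.06 in mild and 0.73, 0.55, 0.31 and 0.02 in strong cultures, so OGD-TIA 16 lay among the mild cultures.

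Genes of TNF, NF-kB and chemokine signaling had a median difference of strong minus mild of 1.51 log2 units, which was 1.0 with a pseudocount of 1. Only 17 of 32 passed the filter, and 11 would pass on the CONTROL mean alone, so the passing members lean towards genes that are high after OGD. Of the 17, 11 were upregulated and 12 had every strong above every mild culture, beside 2.8% and 20.4% of all genes tested. Tnf, Il1a, Il1b and Il6 were among the 15 under the filter, none of which exceeded 1.52 FPKM. Ccl2, the chemokine that draws monocytes, read 0.599, 0.344, 2.43 and 0.747 FPKM in mild and 11, 5.73, 7.57 and 2.99 FPKM in strong cultures (CONTROL from a listed 0 to 0.278). Cxcl10, an interferon-induced chemokine for T cells, read 0.948, 0.884, 4.40 and 2.75 FPKM in mild and 11.9, 8.61, 13.5 and 6.79 FPKM in strong cultures (CONTROL 0.0810 to 0.508). Both chemokines were lowest of the strong cultures in OGD-TIA 16, and highest of the mild ones in OGD-TIA 14. Csf1, the growth factor of microglia and macrophages, read 4.00 to 5.2 FPKM in mild and 18.1, 12.2, 17.1 and 10.5 FPKM in strong cultures (CONTROL 1.71 to 3.75).

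Interferon genes were detected in part. Of 27 interferon and antigen presentation genes 12 passed, 2 were upregulated and 6 had every strong above every mild culture. Over all genes tested 2.8% were upregulated and 20.4% had every strong above every mild culture. On the CONTROL mean alone 11 interferon and antigen presentation genes would pass, so their counts also lean towards genes that are high after OGD. Gbp2, an interferon-induced GTPase, read 1.44, 1.44, 2.26 and 2.21 FPKM in mild and 11.6, 9.35, 9.53 and 4.45 FPKM in strong cultures, against 0.103 to 0.297 FPKM in CONTROL (log2 fold change 3.76 ± 0.40, limma padj = 0.000334). Gbp3 was graded as well (0.964 to 1.33 FPKM and 1.94 to 4.04 FPKM). H2-K1, the heavy chain of class I MHC, read 2.80 to 5.52 and 7.75 to 14.4 FPKM and was not called, and CONTROL cultures ranged from 0.918 to 8.67 FPKM. Isg15, Ifit1, Ifit3, Irf7 and Mx1 were under the filter, as were 10 other members.

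Matrix, protease and wound genes are switched on in glia and other cells around an injury. Of 36 genes 25 passed, 12 were upregulated, 9 had all mild cultures and 20 all strong cultures above CONTROL, and 20 had every strong above every mild culture. Over all genes tested these shares were 2.8%, 4.22%, 18.3% and 20.4%. Of the 36 genes 21 would pass on the CONTROL mean alone, so the counts lean towards genes that are high after OGD. Emp1, a membrane protein of wounded epithelia and glia, read 9.85, 6.81, 7.02 and 5.52 FPKM in mild and 30.9, 21.7, 34.2 and 17.5 FPKM in strong cultures (CONTROL 0.369 to 1.28, log2 fold change 3.80 ± 0.37, limma padj = 0.000211). Lgals3, which encodes galectin-3 of reactive glia and phagocytes, read 7.22, 6.96, 10.8 and 9.93 FPKM in mild and 37.3, 112, 50.4 and 26.0 FPKM in strong cultures (CONTROL 1.47 to 5.36). OGD-VEH 11, which had the lowest overall response of the strong cultures, was highest for Lgals3. Anxa3, a calcium-dependent phospholipid binder, was graded at 0.981 to 1.38 and 2.88, 3.71, 12.4 and 5.88 FPKM.

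The upstream sequences of members of the matrix and NRF2 lists are shown here because these lists moved together in the strong cultures and the binding letters of AP-1 and of NRF2 are known. In the 250 bases before the listed starts (RefSeq, GRCm38.p6, both strands), the AP-1 letters TGANTCA were present in 3 of 18 matrix genes with a listed start (Plaur, Emp1 and Anxa2) and in 5.10% of the genes tested, and in 0 of 18 immediate early genes. The letters TGACNNNGC of the antioxidant element were present in 7 of 20 NRF2 genes and in 13.7% of the genes tested. The sterol letters TCACNCCAC were present in 1 of 11 cholesterol genes (Hmgcs1), in 1 of 15 presynaptic genes (Syt1) and in 1.22% of the genes tested. A match is a description of letters, not a binding site. Capitals mark the match in the sequences that follow, for Plaur, the urokinase receptor (chr7:24462233-24462482, plus strand), Anxa2, a partner of tissue plasminogen activator (chr9:69453433-69453682, plus strand), Gclm, a subunit of the enzyme of glutathione synthesis (chr3:122245307-122245556, plus strand), and Txnrd1, thioredoxin reductase (chr10:82858956-82859205, plus strand).
Plaur: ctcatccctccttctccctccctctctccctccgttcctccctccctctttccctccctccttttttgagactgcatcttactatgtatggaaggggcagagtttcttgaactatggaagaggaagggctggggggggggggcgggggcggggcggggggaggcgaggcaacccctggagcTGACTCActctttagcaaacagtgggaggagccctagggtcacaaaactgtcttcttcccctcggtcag
Anxa2: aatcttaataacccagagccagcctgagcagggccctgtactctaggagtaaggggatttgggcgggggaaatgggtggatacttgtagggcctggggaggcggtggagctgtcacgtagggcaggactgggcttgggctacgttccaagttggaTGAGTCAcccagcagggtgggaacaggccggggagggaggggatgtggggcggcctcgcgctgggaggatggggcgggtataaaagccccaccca
Gclm: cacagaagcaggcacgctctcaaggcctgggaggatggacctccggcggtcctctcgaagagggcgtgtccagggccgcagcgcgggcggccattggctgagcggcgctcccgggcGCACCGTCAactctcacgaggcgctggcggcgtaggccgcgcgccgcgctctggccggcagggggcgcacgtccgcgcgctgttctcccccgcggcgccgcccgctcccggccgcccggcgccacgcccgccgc
Txnrd1: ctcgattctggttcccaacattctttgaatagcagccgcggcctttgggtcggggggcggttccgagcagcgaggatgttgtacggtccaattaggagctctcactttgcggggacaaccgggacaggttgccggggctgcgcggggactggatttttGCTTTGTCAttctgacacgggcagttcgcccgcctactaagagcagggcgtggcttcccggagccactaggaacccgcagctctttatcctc
The match lies 69, 95, 134 and 92 bases before the start, counted to its first base. The levels of the 4 genes were 0.186 to 0.551, 15.4 to 24.9, 96.5 to 173 and 165 to 205 FPKM in mild cultures and 1.09 to 2.43, 37.9 to 91.1, 329 to 498 and 342 to 606 FPKM in strong cultures, and each gene was upregulated in OGD against CONTROL. They are some of the genes with a match. Among the NRF2 genes with a match, strong minus mild ran from 0.07 (Sod1) to 1.34 log2 units (Nfe2l2). A link between match and level was not tested.

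NRF2 is a transcription factor that is freed from KEAP1 by oxidants and drives the synthesis of glutathione, thioredoxin and heme oxygenase. All 24 listed genes passed, 9 were upregulated, and every strong culture was above every mild culture for 19. Over all genes tested these shares were 2.8% and 20.4%. Srxn1, which encodes sulfiredoxin that repairs peroxiredoxins, read 261, 260, 357 and 245 FPKM in mild and 792, 604, 1458 and 978 FPKM in strong cultures (CONTROL 53.4 to 215, log2 fold change 2.06 ± 0.40, limma padj = 0.00306). Osgin1, an oxidative stress growth inhibitor, read 3.94, 3.33, 7.51 and 3.55 FPKM in mild and 9.14, 19.1, 51.8 and 33.2 FPKM in strong cultures (CONTROL 0.662 to 2.23). Slc7a11, the cystine transporter whose loss sensitizes cells to ferroptosis, read 3.66, 3.20, 6.94 and 5.91 FPKM in mild and 16.6, 14.5, 52.4 and 31.3 FPKM in strong cultures (CONTROL 1.76 to 3.94). For these 3 genes OGD-VEH 12 and OGD-TIA 16 were the 2 highest cultures, although over the whole list OGD-TIA 16 had the lowest median change of the strong cultures, at 1.01 against 1.03, 1.04 and 1.54. The 3 members that ran below the mild cultures were Acsl4, Keap1 and Sod2, beside 14.7% of all genes tested. Keap1 is the inhibitor of NRF2, and Acsl4 promotes ferroptosis.

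Hypoxia and glycolysis genes had a median difference of 0.02 log2 units between strong and mild cultures. Of 31 members 5 were above and 8 below, beside 20.4% and 14.7% of all genes tested. Hk1, the hexokinase of neurons, read 233, 230, 165 and 212 FPKM in mild and 149, 68.3, 88.6 and 154 FPKM in strong cultures (CONTROL 191 to 270). Pfkfb4, a regulator of glycolytic flux, was lower in strong cultures as well (13.6 to 16.3 and 5.2 to 7.55 FPKM). Hk2, the inducible hexokinase, was higher (0.893 to 1.30 and 1.65 to 7.67 FPKM), but CONTROL cultures ranged from 0.125 to 5.47 FPKM. The list's 1 upregulated member was Slc2a1, the glucose transporter GLUT1, at 10.6 to 25.4 FPKM in mild and 17.9 to 88.7 FPKM in strong cultures, which overlapped.

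Of 20 heat shock genes 6 had every strong above every mild culture (Hspb1, Hspb8, Cryab, Hspd1, Hspe1 and Bag3) and 3 were below. Over all genes tested the shares were 20.4% and 14.7%, so nothing is read from these counts. Hspb1 read 2.30, 1.77, 0.786 and 1.09 FPKM in mild and 4.62, 2.41, 6.09 and 4.24 FPKM in strong cultures (CONTROL 0.0780 to 0.712). Hspb8 was at 4.26 to 5.51 and 9.44 to 25.2 FPKM, and Cryab, which encodes alpha-B-crystallin, at 2.61 to 4.05 and 8.51 to 15.7 FPKM. Hspa1a, Hsp90aa1 and Dnaja1 were lower in every strong than in every mild culture, and the median over the list was 0.04 log2 units. The 26 genes of the integrated stress and unfolded protein response had 0 calls with limma, with 15 genes higher and 2 lower at an unadjusted p under 0.05 below the fold threshold, and a median difference of 0.28. The median change of that list was 0.05, 0.17, 0.19 and 0.10 log2 units in mild and 0.44, 0.49, 0.57 and 0.36 in strong cultures (CONTROL -0.13 to 0.07), so the sets did not overlap. Sesn2, a stress-induced inhibitor of mTORC1, was graded at 15.6 to 16.2 FPKM in mild and 25 to 32.5 FPKM in strong cultures (CONTROL 7.05 to 12.8), just under the fold threshold at 0.97 ± 0.17 log2 units. Phgdh, the first enzyme of serine synthesis, read 153 to 206 and 276 to 550 FPKM, and Cth, which makes cysteine, 2.11 to 4.31 and 5.12 to 12.8 FPKM. The 13 protein-coding genes of the mitochondrial genome had 0 calls with limma (7 higher at an unadjusted p under 0.05) and a median difference of 0.01, with mt-Co1 the 1 member whose sets did not overlap (6712 to 7475 FPKM in mild and 6152 to 6699 FPKM in strong cultures).

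Of 20 genes of regeneration and growth 17 passed, 4 were upregulated and 1 was downregulated, beside 2.8% and 1.99% of all genes tested. On the CONTROL mean alone 15 would pass, so the counts lean towards genes that are high after OGD. Every strong culture was above every mild culture for 4 of the 17 and below for 2. These shares are near the 20.4% and 14.7% over all genes tested. Tubb6, a tubulin of injured neurons and glia, read 3.60 to 4.58 FPKM in mild and 13.4, 10.8, 14.4 and 7.88 FPKM in strong cultures (CONTROL 0.291 to 3.19). Gdf15, a cytokine of cell stress, read 0.599 to 1.66 and 1.99 to 3.16 FPKM, and Stat3, a mediator of cytokine signaling, 102 to 121 and 174 to 252 FPKM (log2 fold change 1.01 ± 0.18, limma padj = 0.00222). Gap43 and Stmn2, which growing axons carry, were lower, Gap43 at 1039 to 1116 FPKM in mild and 400 to 795 FPKM in strong cultures (CONTROL 1097 to 1282).

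**Figure D3:**
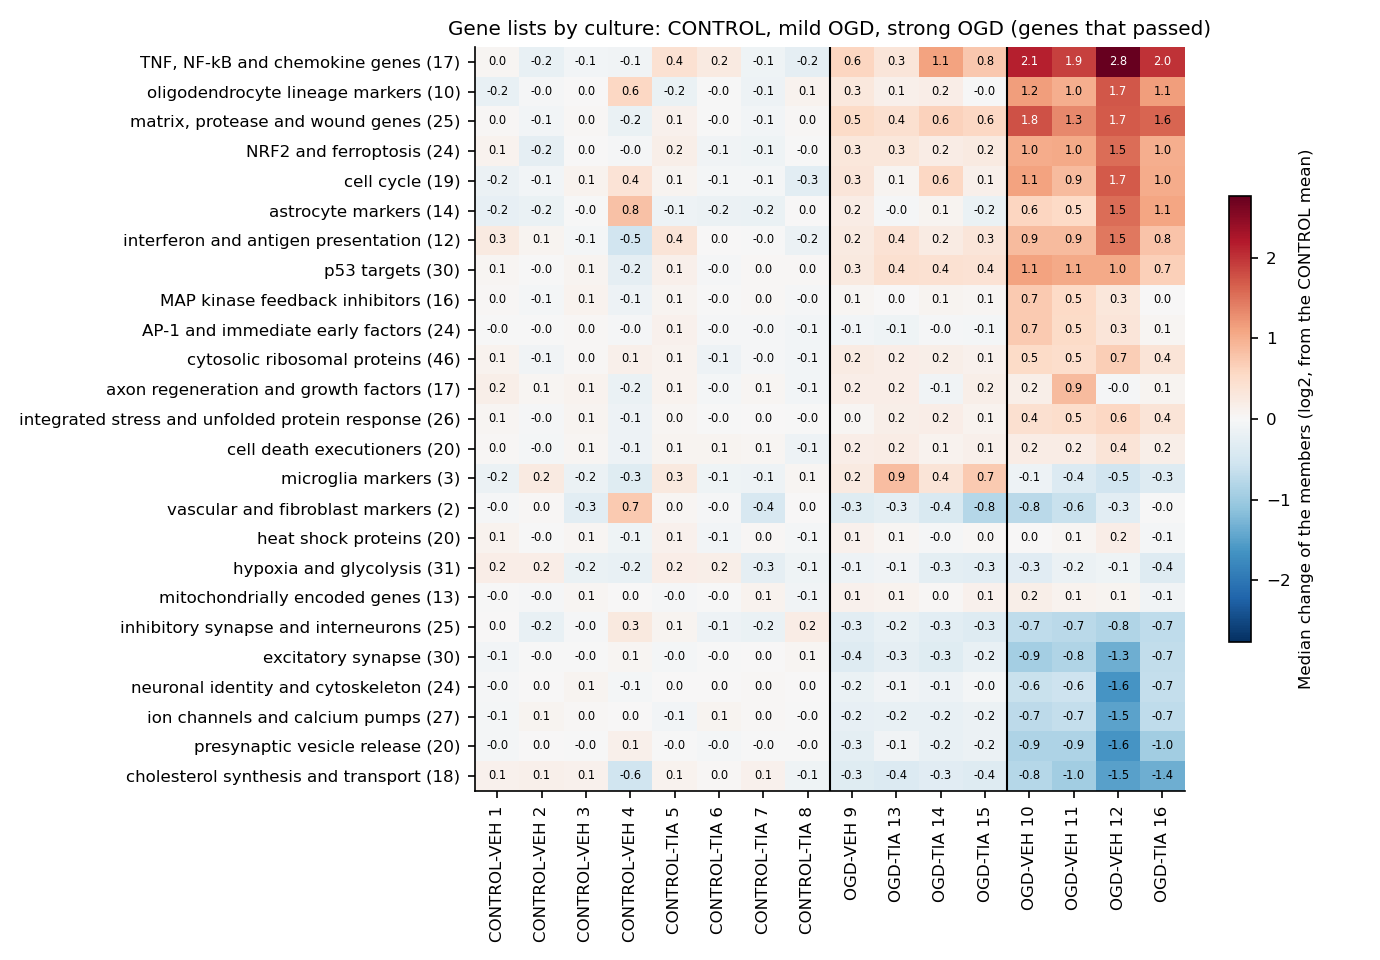
Median log2 change from the CONTROL mean over the members that passed (number in brackets) for 25 gene lists (rows) in the 16 cultures (columns: CONTROL, mild, strong, separated by lines), ordered by the difference of strong minus mild. The TNF list reaches 2.77 in OGD-VEH 12, the immediate early list is 0.05 in OGD-TIA 16, and the synaptic and cholesterol lists are lowest in OGD-VEH 12.

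The neuronal lists and the cholesterol list were lower in strong cultures. For presynaptic vesicle release every strong culture was below every mild culture in 20 of 20 genes, beside 14.7% of all genes tested. In OGD against CONTROL 3 of the 20 were downregulated, beside 1.99% of all genes tested. When fold is set aside, 19 of 20 were lower at a limma padj up to 0.05. Sv2b, a synaptic vesicle glycoprotein, read 136, 129, 129 and 110 FPKM in mild and 41.6, 33.3, 8.55 and 61.4 FPKM in strong cultures (CONTROL 107 to 164). Syp, which encodes synaptophysin, read 494, 629, 474 and 552 FPKM in mild and 250, 304, 110 and 200 FPKM in strong cultures (CONTROL 562 to 678). Syt1, the calcium sensor of fast release (chromosome 10), was graded with 76.7, 77.6, 70.3 and 73.7 FPKM in mild and 32.5, 33.5, 18.2 and 34.0 FPKM in strong cultures (CONTROL 92.2 to 112, log2 fold change -1.11 ± 0.25, limma padj = 0.00644). OGD-VEH 12 was lowest for each.

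On the postsynaptic side, 21 of 30 excitatory genes were lower in every strong than in every mild culture, 0 were higher, and 6 were downregulated. Over all genes tested these shares were 14.7%, 20.4% and 1.99%. Camk2a, the alpha subunit of CaMKII, read 71.9, 103, 84.0 and 77.9 FPKM in mild and 22.8, 41.0, 12.6 and 18.0 FPKM in strong cultures (CONTROL 96.8 to 128, log2 fold change -1.39 ± 0.37, limma padj = 0.0136). Grin1, the obligatory NMDA receptor subunit, read 128, 219, 160 and 166 FPKM in mild and 85.5, 72.9, 30.3 and 90.1 FPKM in strong cultures (CONTROL 192 to 228). With a log2 fold change of -0.98 it missed the fold threshold. Slc17a7, the vesicular glutamate transporter VGLUT1, was graded at 35.8 to 40.4 and 7.01 to 19.3 FPKM (CONTROL 43.7 to 56.7).

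Of 25 inhibitory genes 10 were lower in every strong than in every mild culture, beside 14.7% of all genes tested. The reverse held for 5 of the 25, a share near the 20.4% over all genes. In OGD against CONTROL 4 were downregulated and 1 was upregulated, beside 1.99% and 2.8% of all genes tested. On the CONTROL mean alone 24 of the 25 would pass the filter. Calb1, the calcium buffer calbindin, read 7.66 to 11.6 and 1.31 to 5.95 FPKM (CONTROL 10.7 to 22.5). Among the higher members were the 4 Dlx factors of developing interneurons. Dlx6 read 7.25, 4.29, 4.95 and 11.3 FPKM in mild and 26.4, 13.2, 27.5 and 17.3 FPKM in strong cultures, but CONTROL-VEH 4 reached 22.8 FPKM and the other CONTROL cultures 2.04 to 10.3 FPKM.

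Of 27 ion channels, pumps and exchangers 17 were lower and 3 (Kcna2, Kcnc1 and Kcnd2) higher in every strong than in every mild culture, and 1 was downregulated. Over all genes tested these shares were 14.7%, 20.4% and 1.99%. The calcium extruders Atp2b3 and Slc8a2 were graded below the fold threshold. Atp2b3, a plasma membrane calcium pump, read 6.33 to 7.46 and 1.90 to 4.06 FPKM (CONTROL 7.96 to 11.5), and Slc8a2, a sodium-calcium exchanger, 26.4 to 29.0 and 8.90 to 15.2 FPKM (CONTROL 30.1 to 40.4). Cacna2d3, an auxiliary calcium channel subunit, stood out from these because 3 mild cultures were above CONTROL (25.3, 27.4, 22.8 and 19.1 FPKM against 15.8 to 20.4) and the strong ones below it (6.48 to 11.1 FPKM).

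General neuronal genes were lower in strong cultures as well. Of 24 genes 16 were lower in every strong culture and 0 higher, beside 14.7% and 20.4% of all genes tested. Mef2c, a transcription factor of maturing neurons, was the 1 downregulated, with 202, 366, 367 and 440 FPKM in mild and 144, 183, 50.2 and 202 FPKM in strong cultures (CONTROL 440 to 539). Eno2, the neuronal enolase, read 138 to 183 and 24.4 to 86.9 FPKM and was not called. Map2, the dendritic protein by which neurons are stained, overlapped between the sets (548 to 643 and 486 to 580 FPKM).

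The sterol pathway, which in neurons supplies membrane cholesterol, was lower in the strong cultures in 15 of 18 genes, beside 14.7% of all genes tested. Abca1, which exports cholesterol, was higher. Dhcr7, the last enzyme of cholesterol synthesis (chromosome 7), read 84.6, 84.6, 99.5 and 79.0 FPKM in mild and 33.6, 36.1, 30.3 and 29.8 FPKM in strong cultures (log2 fold change -1.51 ± 0.30, limma padj = 0.00368). Abca1 read 17.9 to 22.4 and 32.1, 49.5, 113 and 70.6 FPKM. For Dhcr7 the CONTROL range of 71.7 to 218 FPKM owed its lower end to CONTROL-VEH 4, and without that culture it began at 125 FPKM, above every mild culture.

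Markers of glia were higher in the strong cultures. Summed over the 14 astrocyte markers that passed, levels were 5123 to 6283 FPKM in mild and 7915 to 14490 FPKM in strong cultures, against 4892 to 5978 FPKM in 7 CONTROL cultures and 9569 FPKM in CONTROL-VEH 4. Every strong culture was above every mild culture for 11 of the 14, and 2 were upregulated, beside 20.4% and 2.8% of all genes tested. Sox9, an astrocyte and progenitor factor, read 22.6, 21.4, 25.9 and 21.8 FPKM in mild and 51.3, 49.5, 75.4 and 47.4 FPKM in strong cultures (CONTROL 15.6 to 27.5, log2 fold change 1.0 ± 0.23, limma padj = 0.00667). Gja1, which encodes connexin 43, read 32.0 to 37.8 and 56.9 to 130 FPKM, and Aldoc, an astrocyte aldolase, 268 to 370 and 439 to 872 FPKM. Gfap was at 26.2, 13.1, 17.4 and 13.2 FPKM in mild and 13.1, 18.4, 85.9 and 64.5 FPKM in strong cultures, so the sets overlapped and the Gfap-rich cultures were OGD-VEH 12 and OGD-TIA 16. The highest Gfap level of each group was in its last-numbered culture (CONTROL-VEH 4, CONTROL-TIA 8 at 15.1 FPKM, OGD-VEH 12 and OGD-TIA 16), and the labels do not say whether cultures at the same place in their groups share a preparation. The median difference over the astrocyte list was 0.81 log2 units, 0.46 without OGD-VEH 12 and 0.50 without OGD-TIA 16. Their part in the other differences, those of NRF2 genes included, was not tested.

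The oligodendrocyte lineage was higher too. Its 10 passing markers summed to 239 to 290 FPKM in mild and 474 to 725 FPKM in strong cultures (CONTROL 174 to 226). Of the 10, 8 were higher in every strong culture, beside 20.4% of all genes tested. Pdgfra, the receptor of oligodendrocyte precursors, read 41.6, 41.4, 63.2 and 46.5 FPKM in mild and 131, 140, 222 and 133 FPKM in strong cultures (CONTROL 26.3 to 46.6, log2 fold change 1.19 ± 0.31, limma padj = 0.0107). Sox10, a lineage factor, read 7.33 to 11.3 and 19.9 to 38.9 FPKM, and Olig2 was upregulated and graded (63.6 to 77.2 and 111 to 174 FPKM). Mbp, which encodes the main protein of myelin, was the exception at 4.70 to 5.00 FPKM in mild and 2.97 to 4.53 FPKM in strong cultures. Of the microglial markers that passed, Cd68, a lysosomal protein, read 9.72, 4.25, 3.00 and 4.19 FPKM in mild and 14.4, 12.4, 11.9 and 10.8 FPKM in strong cultures, whereas Aif1 was lower in strong (0.242 to 0.594 FPKM) than in mild cultures (1.06 to 2.45 FPKM). Of the 2 vascular and fibroblast markers that passed, Dcn, which encodes decorin, was lower in strong cultures (7.29 to 10.3 and 2.20 to 5.29 FPKM).

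Genes of proliferation and translation were higher in the strong cultures as well. Of 19 cell cycle genes 13 were higher in every strong culture and 4 were upregulated, beside 20.4% and 2.8% of all genes tested. Cdk1, the mitotic kinase, read 22.2, 8.23, 49.7 and 32.0 FPKM in mild and 117, 81.9, 119 and 71.4 FPKM in strong cultures (CONTROL 5.33 to 45.2). Aurkb read 6.29 to 17.4 and 20.8 to 42.2 FPKM, and Ccnb1, which encodes cyclin B1, 6.03 to 9.99 and 17.2 to 23.7 FPKM. Of 46 cytosolic ribosomal protein genes 34 were higher in every strong culture, beside 20.4% of all genes tested. The median difference of these 46 genes was 0.36 log2 units. In OGD against CONTROL with limma 0 were called, since the fold threshold was not reached, while 38 were higher at padj up to 0.05 and 44 at an unadjusted p under 0.05. Rps6 read 139, 126, 130 and 130 FPKM in mild and 185, 177, 186 and 160 FPKM in strong cultures (CONTROL 93.1 to 113), Rpl7a 656 to 830 and 925 to 1052 FPKM, and Rps13 447 to 524 and 538 to 749 FPKM.

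**Figure D4:**
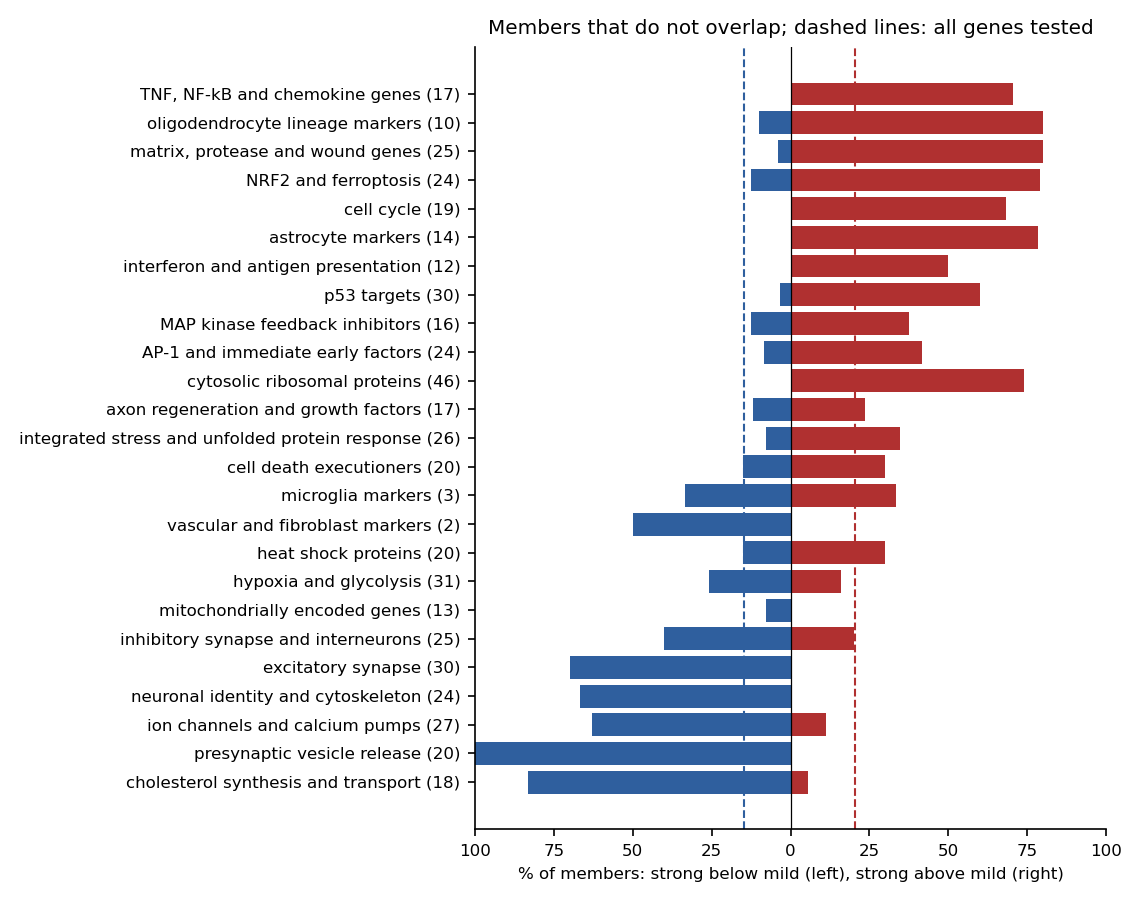
Percent of the members that passed (number in brackets) with every strong culture above (right) or below (left) every mild culture, for 25 gene lists. Dashed lines mark the same shares over all genes tested, 20.4% above and 14.7% below, and the presynaptic list reaches 100% below with 20 of 20 genes.

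Some called genes left the CONTROL range in both sets and differed less between strong and mild than the other genes that did so. The upregulated genes with all OGD cultures beyond all CONTROL cultures and the smallest difference between strong and mild were Ints4, Lsg1, Fam53b, Id3 and Pidd1. Ints4, a subunit of the Integrator complex, read 59.5, 52.3, 42.9 and 52.9 FPKM in mild and 71.7, 48.9, 92.2 and 56.9 FPKM in strong cultures (CONTROL 18.1 to 36.6, log2 fold change 1.20 ± 0.17, limma padj = 0.00112). Lsg1, a GTPase of ribosome assembly, read 20.3 to 23.2 and 24.2 to 33.0 FPKM, Fam53b 7.53 to 10.4 and 7.96 to 14.2 FPKM, and Id3, an inhibitor of helix-loop-helix factors, 5.79 to 9.87 and 8.67 to 13.1 FPKM. Pidd1, a p53-induced death domain protein, read 6.19 to 12.1 and 12.5 to 19.5 FPKM. The sets differed by 0.28 to 0.56 log2 units in these 5 genes. Lsg1 and Pidd1 were still graded, with every strong above every mild culture.

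The corresponding downregulated genes were Pde8b, Pdzd2, Sept4, Abca8a and Myrip. Pdzd2, a PDZ domain protein, read 5.03, 5.61, 7.02 and 8.35 FPKM in mild and 5.03, 5.90, 2.24 and 6.09 FPKM in strong cultures (CONTROL 8.84 to 16, log2 fold change -1.17 ± 0.20, limma padj = 0.00198). Pde8b, a cAMP phosphodiesterase, read 1.95 to 2.98 and 1.38 to 2.45 FPKM (CONTROL 3.14 to 12.2), Sept4, a septin, 0.979 to 1.72 and 1.13 to 1.99 FPKM, Abca8a 2.93 to 3.67 and 2.06 to 3.57 FPKM, and Myrip, a linker of Rab27 to myosin, 2.37 to 2.67 and 1.46 to 2.11 FPKM. These genes had left the CONTROL range in every OGD culture at either severity. Myrip was still graded, with every strong below every mild culture.

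In 7 genes the sets left the CONTROL range on opposite sides. The 5 with the largest difference are given, and they were not called in OGD against CONTROL. Zfp207, a zinc finger protein of the spindle, read 100, 100, 106 and 110 FPKM in mild and 143, 141, 160 and 139 FPKM in strong cultures, around a CONTROL range of 113 to 134 FPKM. Nwd1 (6.98 to 8.34 FPKM in mild, 8.54 to 11.1 in CONTROL, 12.6 to 22.2 in strong cultures), Cpped1, a phosphatase (5.45 to 5.83, 5.99 to 7.82 and 8.48 to 14 FPKM), and Igsf9b, an adhesion protein of inhibitory synapses (6.42 to 7.03, 7.07 to 8.24 and 8.33 to 9.27 FPKM), followed the same order. Them4, a mitochondrial thioesterase, was the reverse, with 30.5 to 33.0 FPKM in mild, 24.7 to 29.6 in CONTROL and 18.7 to 22.5 FPKM in strong cultures. In a comparison of OGD with CONTROL as 2 groups the values cancelled, and the log2 fold changes were between -0.09 and 0.20.

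**Figure D5:**
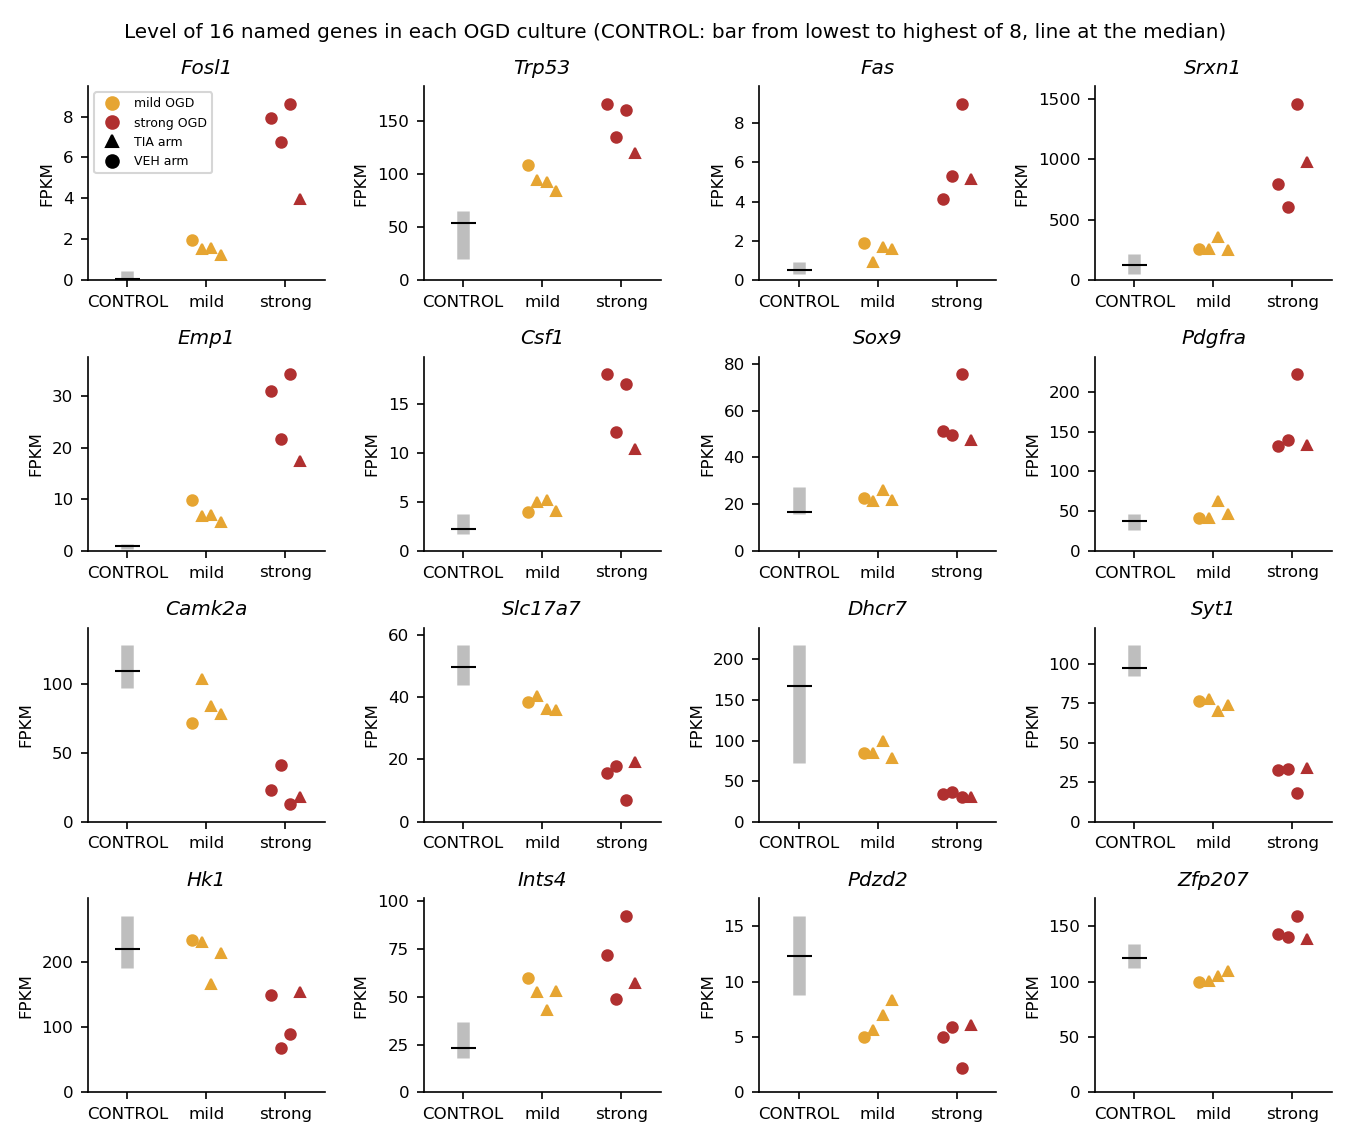
FPKM of 16 named genes in the 4 mild and 4 strong cultures (triangles TIA, circles VEH), with the CONTROL cultures as a bar from the lowest to the highest of 8 and a line at the median. Fosl1, Trp53, Emp1 and Csf1 rise stepwise, and Camk2a falls mainly in strong cultures. Dhcr7 falls in mild and further in strong cultures (set medians -0.83 and -2.24 log2 units from the CONTROL mean). Ints4 and Pdzd2 differ little between the sets. Zfp207 lies below CONTROL in mild (100 to 110 FPKM) and above it in strong cultures (139 to 160 FPKM).

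The strong cultures differed among themselves more than the mild ones did, in 23 of 25 lists by the range of the list median. OGD-VEH 12 was the highest of the 4 for 11 lists and the lowest for 8, the neuronal lists among them, and OGD-TIA 16 was the lowest for 11. Within each arm 1 set is a single culture, OGD-VEH 9 for the mild and OGD-TIA 16 for the strong set, so the within-arm differences carry no spread for that side. Over the upregulated genes the median difference of strong minus mild was 1.23 log2 units within VEH and 1.13 within TIA, and over the downregulated genes it was -1.01 and -0.82. By list, the within-TIA difference was smaller for p53 genes (0.37 against 0.68 within VEH), TNF genes (0.99 against 1.58) and interferon genes (0.42 against 0.84), similar for matrix genes (0.87 against 1.02) and excitatory genes (-0.47 against -0.55), and larger for NRF2 genes (0.90 against 0.73), astrocyte markers (1.11 against 0.37) and cholesterol genes (-1.04 against -0.66). The difference between the arms was not tested.

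Transcript length and expression level moved somewhat with the difference. By tertiles of transcript length, the median difference of strong minus mild was 0.12, 0.06 and 0.06 log2 units from the shortest to the longest, and by tertiles of mean FPKM it was 0.14, 0.09 and 0.04 from the lowest to the highest. The share of genes not overlapping was larger for long transcripts, 26.9% above and 22.3% below, than for short ones, 15.8% above and 6.81% below. Their part in the results was not tested.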

How the data were processed

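RNA of 16 cultures was sequenced as stranded mRNA libraries with single-end reads. Per the study's methods, the authors aligned reads to GRCm38 with STAR and estimated isoform levels with eXpress, and the deposited table holds FPKM for 135202 isoforms, 74 further lines having no identifier. TMM scaling is stated by the table's name alone. The FPKM of isoforms were summed per gene symbol, which gives 53679 genes, and 16313 with a mean of at least 0.5 FPKM were tested on log2(FPKM + 0.1), a scale that understates the change of low genes. No counts were used, and the depth of 19.9 to 25.3 M reads was estimated from the FPKM steps of genes with 1 isoform. Low values rest on few reads, and no interval is given for them.

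OGD was compared with CONTROL over both drug arms with limma 3.58.1 in R 4.3.3, drug as a covariate and Benjamini-Hochberg adjustment (padj). A gene was called at padj of at most 0.05 and an absolute log2 fold change of at least 1. P-values measure the spread between cultures around a fit with a shared OGD effect and a drug effect. A difference in the OGD effect between the drug arms is part of that spread. On simulated data, with 200 of 16313 genes changed, 90.5 to 94% were recovered in 3 draws of this comparison, with at most 3 false calls. The simulation moved every OGD culture alike, by folds above the threshold and in few genes. The real OGD cultures split into strong and mild, so these rates do not carry over to the 780 calls. Strong and mild cultures were described by values, medians and whether the sets overlapped, and were not tested.

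Genes were named by 5 rules: the 8 upregulated and 8 downregulated called genes with the widest gap between the sets (mean of at least 2 FPKM, no placeholder names), the 5 of each direction that left CONTROL in all OGD cultures and differed least between the sets, up to 5 on opposite sides of CONTROL, up to 3 per list with the largest difference among members not overlapping, and 9 genes of the study. Some genes that these rules name are not reported here. Other genes named in the text are list members chosen after their values were seen. The cultures, gene lists and rules were chosen with earlier results of these data known. The alternatives were other pseudocounts, filters, scalings, weights and isoform sums, no drug term, each drug arm alone and each culture left out. The isoform sum weighted by length was chosen after seeing the data. Promoter sequences are from RefSeq (GRCm38.p6). Tables were handled in Python 3.11.15 with pandas 2.3.3 and numpy 2.4.6, and plots drawn with matplotlib 3.10.9.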

Additional observations from a re-analysis of the deposited data

Results flagged for a closer look

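A culture is named here where it lay far from the other 3 of its group by Dixon's criterion, which chance meets in about 1 in 20 groups. Of 228 groups tested 31 met it, 17 of them through OGD-TIA 16 and 6 through OGD-VEH 9. These are the lone strong culture of the TIA arm and the lone mild culture of the VEH arm, and many of the genes were named for a wide gap between the sets, so a gap in those arms is built into the choice.

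OGD-TIA 16 stood apart in its overall response (1.81, next culture 0.95). Its list medians, as log2 change from CONTROL, stood apart for p53 targets (0.66), NRF2 genes (1.01), matrix genes (1.60), oligodendrocyte markers (1.15), presynaptic genes (-0.96), ion channels (-0.70), neuronal identity (-0.66) and cholesterol genes (-1.35). On the log2(FPKM + 0.1) scale it was highest of its group for Cenpf (3.78), Ddit4l (5.26), Tmbim1 (5.56), Vipr2 (4.51), Tgif1 (3.67) and Cpped1 (3.23), and lowest for Cish (2.20) and Ldb2 (5.56).

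OGD-VEH 9 was lowest of its group for the p53 list (0.27), Layn (2.17) and Igsf9b (2.83), and highest for Nxph2 (2.33), Fam81a (5.53) and Dhcr7 (6.41). OGD-VEH 12 was highest for the cell death list (0.36) and lowest for Pdzd2 (1.22).

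Among the CONTROL cultures, CONTROL-VEH 4 was lowest for the cholesterol list (-0.55), Dhcr7 (6.17) and Rab3d (3.47). CONTROL-TIA 8 was lowest for the cell death list (-0.14), CONTROL-TIA 6 for the presynaptic list (-0.045), and CONTROL-VEH 3 was highest for Lsg1 (3.84).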

How the results depend on the processing

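The split of the cultures was the same by all 3 measures of response, and the gap between the sets was 0.77 to 0.89 over other pseudocounts, filters, scaling, weighting by length, same-arm CONTROL cultures and each culture left out. The cultures were selected on the size of this response in the same values, so a gap is built into the choice and is no separate evidence. The gap was not computed for array weights, no drug term or single isoforms. The 780 calls in OGD against CONTROL became 394 (252 up, 142 down) with a pseudocount of 1. Leaving out 1 culture gave 526 (without OGD-VEH 12) to 1058 (without OGD-VEH 9). With median-ratio scaling 382 genes were up and 395 down. Between strong and mild, 4458 genes were higher and 3148 lower with isoforms weighted by length.

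Within the TIA arm, where the strong set is 1 culture, list differences of strong minus mild moved to 0.052 (AP-1), 0.10 (MAP kinase inhibitors), -0.10 (hypoxia), 0.17 (integrated stress), 0.37 (p53), 0.12 (cell death), 0.99 (TNF), 0.42 (interferon), 0.87 (matrix), 0.40 (vascular), -0.19 (mitochondrial) and 0.19 (ribosomal). Within the VEH arm they moved to 0.42 (integrated stress), 0.37 (astrocyte), 0.85 (oligodendrocyte) and -0.28 (vascular). Median-ratio scaling gave 0.13 (cell death), -0.52 (inhibitory) and -0.085 (mitochondrial), and a pseudocount of 1 gave 1.0 (TNF) and 0.85 (matrix). Leaving out 1 OGD culture gave 0.23 to 0.36 (integrated stress), 0.13 to 0.25 (cell death, lowest without OGD-VEH 11), 0.28 to 0.51 (axon regeneration, highest without OGD-TIA 13), 0.46 to 1.06 (astrocyte, lowest without OGD-VEH 12), -0.76 to -0.46 (neuronal identity), 0.67 to 1.11 (cell cycle), 0.89 to 1.27 (matrix), -0.64 to -0.31 (inhibitory), 0.85 to 1.16 (oligodendrocyte) and -0.25 to 0.36 (vascular, 2 genes). The cause was not tested.

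Of 103 named genes 103 kept the direction of strong minus mild with a pseudocount of 1, with median-ratio scaling, weighted by length and within VEH, and 100 within TIA, where Fam53b (-0.29), Sept4 (-0.17) and Abca8a (0.22) reversed. Most of these genes were named because their strong and mild cultures did not overlap. That fixes their direction within each arm and with another pseudocount, so those counts are no separate evidence. No paired analysis was possible because the groups share no replicate numbers, and the place of a culture within its group is not a label.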
